A study of Homo sapiens with 6 samples.

Results

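The 10 genes described here encode the mTOR kinase, the proteins that assemble with it and the switch and substrates on either side of it: MTOR, RPTOR, RICTOR, MLST8, DEPTOR, TSC1, TSC2, RHEB, RPS6KB1 and EIF4EBP1. They were taken by gene symbol from the 26255 genes listed for every sample, and all 10 were found. RNA-seq was run on 22RV1 cells, a human castration-resistant prostate cancer line, grown in RPMI 1640 with 10% FBS. The line was given DMSO vehicle (3 samples) or bruceantin (BCT), a quassinoid, at 10 nM (3 samples), and RNA was taken after 24 h. Values are FPKM, which count fragments relative to the length of the transcript and the depth of the sample, so levels can be compared between genes per length. The labels do not say whether the samples of a group came from separate cultures, so the p-values measure only the spread between these samples.

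The mTOR kinase works in a pair of complexes. In mTORC1 it is held by RPTOR (Raptor) and drives protein synthesis and growth when nutrients are plentiful, while in mTORC2 it is held by RICTOR and phosphorylates AKT and SGK kinases. MLST8 belongs to both complexes and DEPTOR binds and restrains both. The TSC1-TSC2 complex keeps the small GTPase RHEB inactive, and active RHEB turns on mTORC1. Of the substrates, RPS6KB1 is the S6 kinase, and EIF4EBP1 is a repressor that holds the cap-binding factor eIF4E until mTORC1 phosphorylates it. In prostate cancer this pathway acts downstream of PI3K signaling. Activity of the complexes depends on phosphorylation and location in the cell, which transcript levels do not measure.

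The listed gene spans, on hg19 and counted from 1, place MTOR on chromosome 1 from 11166588 to 11322608, RPTOR on chromosome 17 from 78518625 to 78940173 and RICTOR on chromosome 5 from 38938023 to 39074510. MLST8 and TSC2 both lie on chromosome 16, from 2255178 to 2261069 and from 2097990 to 2185899. TSC1 lies on chromosome 9 from 135766735 to 135820020, RHEB on chromosome 7 from 151163098 to 151217010 and RPS6KB1 on chromosome 17 from 57970407 to 58027786. EIF4EBP1 and DEPTOR are both on chromosome 8, from 37888020 to 37917883 and from 120885895 to 121063157. Of these spans, 4 are listed identically for another gene: that of TSC2 also for PKD1 and for a pair of microRNA genes at 0, that of MLST8 for BRICD5, that of MTOR for ANGPTL7 and MTOR-AS1, and that of RPTOR for LOC101928855. Genes that share a listed span need not each extend over all of it. The library kit is not stated to keep strand, so fragments where such genes overlap could be assigned to either. PKD1 itself was at 9.57 ± 0.47 FPKM with DMSO and 9.50 ± 0.494 FPKM with BCT (SD, n = 3 each), or -0.01 on the log2 scale.

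Summed FPKM ranged from 1169649 to 1572321 over the DMSO samples and from 757534 to 799838 over the BCT samples, and MIR6087 alone took 43.5% to 55.3% and 31.7% to 32.5% of those sums. The files do not give the number of reads of a sample, but the commonest ratio among values of 0.02 to 0.15 FPKM put the depth at 0.883 to 1 in the DMSO samples and 1.06 to 1.13 in the BCT samples, relative to DMSO replicate 1. BCT replicate 1 lay nearer to the DMSO samples than the other BCT samples did, at 40.2 against 65.0 and 63.8 on a first principal component that held 72.0% of the variance. Of 9 prostate luminal markers, 7 were above 5 FPKM in every sample, while KLK2 and KLK3 were below it with BCT. Their summed level was 1078.7 to 1105.8 FPKM with DMSO and 1993.2 to 2127.6 FPKM with BCT, mostly from the keratins KRT8 (261.7 to 279.6 and 553.3 to 680.5 FPKM) and KRT18 (332.9 to 340.9 and 1064.9 to 1147.6 FPKM). Of 5 markers of other cells, PTPRC, CD3E and PECAM1 stayed below 0.1 FPKM, whereas COL1A1 (1.23 to 1.55 and 5.04 to 6.31 FPKM) and ACTA2 (3.45 to 4.46 and 13 to 14.7 FPKM) were higher with BCT than with DMSO. The sum of those 5 markers was 5.02 to 5.99 FPKM with DMSO and 18.1 to 20.9 FPKM with BCT, and the part of either marker list in the results below was not tested. In bulk RNA, fewer cells of a kind and less RNA per cell cannot be told apart.

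With BCT, the transcript of the translational repressor EIF4EBP1 was 3.81-fold lower and that of the mTORC2 subunit RICTOR 2.16-fold higher, while the kinase MTOR, the shared subunit MLST8 and the S6 kinase RPS6KB1 did not pass the test with the values as deposited. RHEB, the activator of mTORC1, was 1.75-fold lower with these values, just short of the fold change threshold. Genes were tested with limma on log2(FPKM + 0.1), with Benjamini-Hochberg adjustment over the 12729 genes that averaged 1 FPKM or more, and were called at an FDR below 0.05 with an absolute log2 fold change above 0.85. All 10 mTOR genes passed the filter. Of these, 1 was called lower, against 17.8% of all tested genes, and 1 was called higher, against 13.9%, each being 10.0% of the group. The FDR alone was passed by 7 of the 10, 3 lower and 4 higher, against 82.1% of all tested genes in either direction. Every BCT sample lay below every DMSO sample in 3 of the genes (44.3% of all tested genes) and above in 4 (41.0%). The median change over the 10 genes was 0.14 on the log2 scale, against -0.038 for all tested genes.

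**Figure D1:**
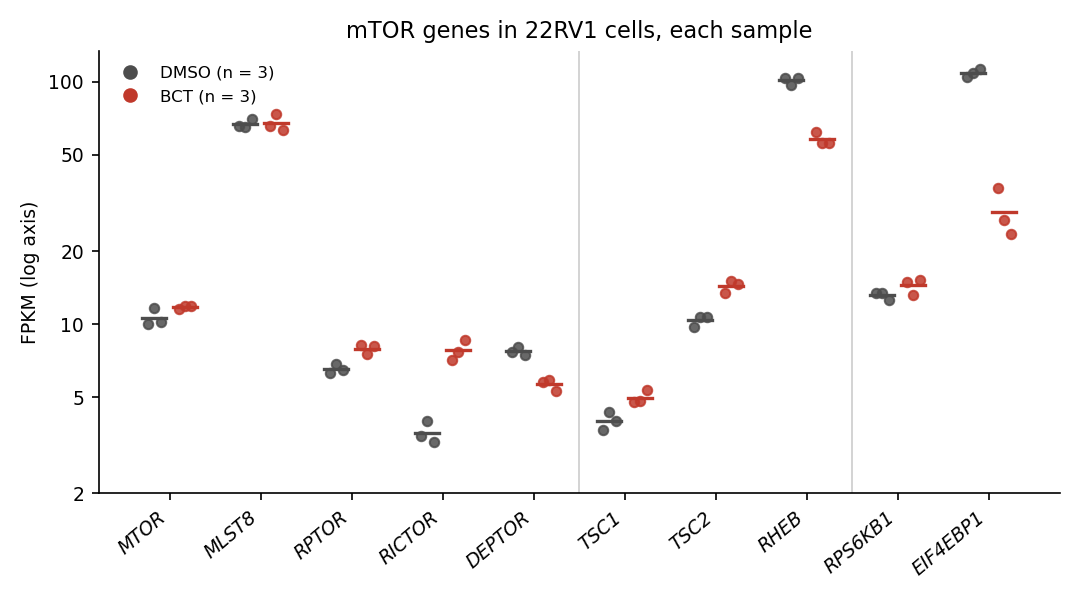
FPKM (log axis) of the 10 mTOR genes in each of the 6 samples, DMSO in grey and BCT in red, with a bar at each group mean; vertical lines part the complexes, the TSC-RHEB switch and the substrates. EIF4EBP1 fell from a mean of 108.6 to 28.9 FPKM and RICTOR rose from 3.57 to 7.80 FPKM, and the groups overlap in MTOR, MLST8 and RPS6KB1.

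Within DMSO-treated cells the mean levels spanned 30.4-fold, from 108.6 FPKM for EIF4EBP1 to 3.57 FPKM for RICTOR. The order was EIF4EBP1, RHEB, MLST8, RPS6KB1, MTOR, TSC2, DEPTOR, RPTOR, TSC1 and RICTOR, and among neighbours in that order the sample ranges overlapped only for MTOR with TSC2 and for TSC1 with RICTOR. With BCT the span was 13.6-fold. MLST8 then stood first at 67.6 FPKM, followed by RHEB at 57.9 FPKM and EIF4EBP1 at 28.9 FPKM, while RICTOR had reached the level of RPTOR, 7.80 against 7.93 FPKM, and lay above DEPTOR at 5.66 FPKM. Ranges of neighbours overlapped with BCT for RPS6KB1 with TSC2, RPTOR with RICTOR, and DEPTOR with TSC1. Within a group the coefficient of variation was 3.38% to 10.7% with DMSO and 1.85% to 23.5% with BCT, the largest being that of EIF4EBP1.

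Among the complex subunits, RICTOR was listed at 3.45, 3.99 and 3.25 FPKM in the DMSO samples and at 7.12, 7.70 and 8.57 FPKM in the BCT samples. All BCT samples lay above all DMSO samples. The log2 fold change was 1.11 (standard error 0.10, 95% interval 0.88 to 1.34, adjusted p = 1.3e-05 from limma), and it stayed between 1.04 and 1.19 with each sample left out. After a correction for GC content and transcript length it was 0.82, which is short of the fold change threshold, and in a test against that threshold the adjusted p was 0.079. RICTOR has the lowest GC content (36.5%) and the longest transcript (9533 bases) of the 10 genes.

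RPTOR, the mTORC1 counterpart of RICTOR, had 6.27, 6.84 and 6.46 FPKM in DMSO-treated cells against 8.18, 7.5 and 8.11 FPKM in BCT-treated cells. These groups did not overlap either, but the log2 fold change of 0.28 (standard error 0.065, limma adjusted p = 0.0038) was far from the threshold for a call. MTOR stood at 10.0, 11.7 and 10.2 FPKM in DMSO-treated and at 11.5, 11.9 and 11.9 FPKM in BCT-treated cells. Here DMSO replicate 2 lay among the BCT samples, and the 95% interval of the log2 fold change, -0.02 to 0.31, ended below that of RICTOR (adjusted p = 0.086 from limma). MLST8 was at 65.6, 65.1 and 70.1 FPKM against 65.9, 73.7 and 63.3 FPKM. The groups were intermingled, with a log2 fold change of 0.01 and an interval of -0.14 to 0.17.

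DEPTOR, the inhibitor of both complexes, had 7.65, 8.04 and 7.46 FPKM under vehicle and 5.79, 5.86 and 5.32 FPKM under BCT. All BCT samples were below the DMSO samples, by 0.44 on the log2 scale (standard error 0.066, interval -0.59 to -0.29, limma adjusted p = 2.7e-04), which is not a call. This direction turned when every sample was rescaled to the same FPKM sum (0.31).

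In the TSC-RHEB switch, the activator and its inhibitors had fold changes of opposite sign, although none was called. RHEB measured 103.6, 97.2 and 103.5 FPKM in the DMSO samples but 61.8, 56.1 and 55.7 FPKM in the BCT samples, with no overlap. Its log2 fold change of -0.81 (standard error 0.058, interval -0.94 to -0.68, adjusted p = 3.9e-06 from limma) missed the threshold of 0.85. Without BCT replicate 1, the highest of the BCT samples, it was -0.86 and was called. With equal FPKM sums it was -0.04 (limma adjusted p = 0.82), and -0.42 when MIR6087 was left out of the sums. TSC2, the GTPase-activating subunit for RHEB, was at 9.77, 10.7 and 10.7 FPKM against 13.5, 15.1 and 14.6 FPKM. TSC1, which stabilizes TSC2, was at 3.64, 4.33 and 4.0 FPKM against 4.77, 4.80 and 5.36 FPKM. Both subunits were higher in every BCT sample than in any DMSO sample, as were 41.0% of all tested genes. Their log2 fold changes were 0.47 (interval 0.32 to 0.62, limma adjusted p = 1.9e-04) for TSC2 and 0.31 (interval 0.11 to 0.52, limma adjusted p = 0.0099) for TSC1, and neither was called.

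Of the substrates, EIF4EBP1 reached 104.9, 108.4 and 112.5 FPKM in vehicle-treated cells but 36.5, 26.8 and 23.5 FPKM in BCT-treated cells. The lowest DMSO sample was far above the highest BCT sample, which was BCT replicate 1. The change was -1.93 on the log2 scale (standard error 0.14, 95% interval -2.25 to -1.61, adjusted p = 4.3e-06 from limma), and -2.11 without BCT replicate 1. EIF4EBP1 was called lower under every alternative tried, its smallest change being -1.16 after rescaling to equal FPKM sums. RPS6KB1 was at 13.4, 13.4 and 12.6 FPKM against 14.9, 13.2 and 15.2 FPKM. BCT replicate 2 lay within the DMSO range, and the log2 fold change of 0.13 had an interval of -0.02 to 0.28 (limma adjusted p = 0.095).

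**Figure D2:**
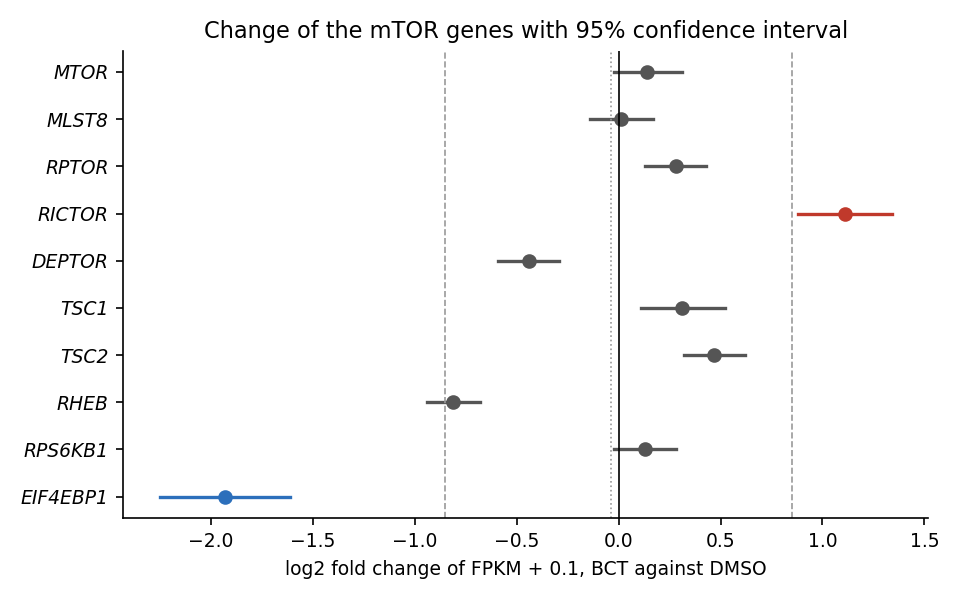
Log2 fold change of each mTOR gene with its 95% confidence interval from limma (n = 3 per group); dashed lines mark the fold change threshold of 0.85 in either direction and the dotted line the median of all tested genes. RICTOR (red, 1.11) and EIF4EBP1 (blue, -1.93) were called, and RHEB lies at -0.81.

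EIF4EBP1 has a pair of close relatives, EIF4EBP2 and EIF4EBP3, which also bind eIF4E, and both fell with BCT, against 17.8% of all tested genes. EIF4EBP2 had 32.9, 34 and 32.6 FPKM in the DMSO samples against 17.5, 15.9 and 16.5 FPKM in the BCT samples, a log2 fold change of -0.99 (adjusted p = 1.3e-06 from limma). EIF4EBP3 was at 28.8, 26.1 and 25.9 FPKM against 11.6, 9.91 and 8.63 FPKM, a log2 fold change of -1.42 (adjusted p = 4.0e-06 from limma). No BCT sample reached the DMSO range in either gene, and 44.3% of all tested genes likewise lay wholly below it. EIF4EBP3 is less certain, because its span is also listed for ANKHD1 and for the read-through gene ANKHD1-EIF4EBP3, which was 1.88-fold higher with BCT (7.01 ± 1.05 to 13.2 ± 0.997 FPKM, SD, n = 3 each). Their target EIF4E stood at 37.3, 34.8 and 35.4 FPKM in vehicle-treated and at 44, 46.3 and 50.7 FPKM in BCT-treated cells, a log2 fold change of 0.39 that was not called. The summed level of the 3 binding protein genes went from 168.7 ± 2.26 to 55.6 ± 8.91 FPKM (SD, n = 3 each), and the share of EIF4EBP1 in that sum from 64.4% to 51.6%. The 3 binding protein genes were lower under every scaling tried, although EIF4EBP2 lost its call under both rescalings to equal sums (-0.23, and -0.61 without MIR6087) and in the test against the threshold (limma adjusted p = 0.081), and EIF4EBP3 lost it under the rescaling that included MIR6087 (-0.66).

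The 250 bases before the RefSeq start of RICTOR, RHEB, EIF4EBP2 and EIF4EBP3 are shown because the first is the mTOR gene called higher with the values as deposited, the second is the mTOR gene next to the threshold, and the others fell together with EIF4EBP1. They are read 5′ to 3′ along the gene on GRCh38.p14, from chr5:39074400-39074649 (minus strand), chr7:151519896-151520145 (minus strand), chr10:70403895-70404144 (plus strand) and chr5:140547412-140547661 (plus strand). Capitals mark the GC box GGGCGG or its reverse complement, or the E-box CACGTG, and overlapping matches run together.

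RICTOR: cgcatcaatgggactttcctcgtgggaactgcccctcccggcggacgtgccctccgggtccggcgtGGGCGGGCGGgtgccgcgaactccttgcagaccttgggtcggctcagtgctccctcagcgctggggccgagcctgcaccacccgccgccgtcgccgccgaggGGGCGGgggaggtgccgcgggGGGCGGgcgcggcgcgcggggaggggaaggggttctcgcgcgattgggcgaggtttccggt
RHEB: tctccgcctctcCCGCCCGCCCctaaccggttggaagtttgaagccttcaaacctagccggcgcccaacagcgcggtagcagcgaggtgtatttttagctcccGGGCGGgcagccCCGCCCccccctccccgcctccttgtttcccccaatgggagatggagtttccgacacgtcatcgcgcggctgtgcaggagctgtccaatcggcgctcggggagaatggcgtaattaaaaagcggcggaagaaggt
EIF4EBP2: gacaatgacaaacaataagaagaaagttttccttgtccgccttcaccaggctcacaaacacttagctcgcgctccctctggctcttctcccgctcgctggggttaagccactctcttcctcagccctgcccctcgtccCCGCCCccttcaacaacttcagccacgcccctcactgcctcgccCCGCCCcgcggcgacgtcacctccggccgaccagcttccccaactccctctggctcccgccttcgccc
EIF4EBP3: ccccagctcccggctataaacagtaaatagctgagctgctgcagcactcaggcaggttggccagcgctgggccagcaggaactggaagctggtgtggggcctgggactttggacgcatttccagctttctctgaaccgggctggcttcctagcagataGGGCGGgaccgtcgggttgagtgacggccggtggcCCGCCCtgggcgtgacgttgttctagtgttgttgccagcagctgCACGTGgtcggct

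Windows were matched by symbol for 7 of the 10 mTOR genes and 55 of the 64 further genes, and EIF4EBP1, DEPTOR and MLST8 had none. Both strands were searched. The GC box was in a window of 5 of the 7 genes, namely MTOR, RICTOR, TSC1, TSC2 and RHEB, against 42.6% of all 35116 windows of that length. RICTOR and RHEB, with fold changes of opposite sign, each held 4 matches, some of them overlapping. The E-box was in 1 of the 7, TSC2, where it overlapped the only match to the C/EBP-ATF element TGATGNAA. Among all windows, 6.34% held that E-box and 3.14% held that element. Of the 55 further genes with a window, 43 held a GC box and 10 an E-box, among them EIF4EBP3 with 1 and EIF4E with 2, while EIF4EBP2 had none. Some genes have several windows, so shares of genes and of windows are not on the same footing. A match describes the letters only.

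Ratios of genes within a sample do not depend on a single scaling factor, although they do depend on effects of GC content or length, and 5 pairs were compared across the groups. The ratio of EIF4EBP1 to EIF4E was 2.81, 3.11 and 3.18 with DMSO and 0.829, 0.578 and 0.463 with BCT. It passed from well above 1 to below 1, a log2 difference of -2.32 or 4.98-fold. The sum of the 3 binding protein genes over EIF4E, a measure chosen after the values were seen, went from 4.71 ± 0.215 to 1.19 ± 0.27 (SD, n = 3 each), and without EIF4EBP3 from 3.96 ± 0.232 to 0.979 ± 0.225. The ratio of RICTOR to RPTOR was 0.550, 0.584 and 0.503 with DMSO and 0.870, 1.03 and 1.06 with BCT. Per length, RICTOR was below RPTOR in every DMSO sample and near it with BCT, a log2 difference of 0.83 that shrank to 0.31 after the GC and length correction. The ratio of DEPTOR to MTOR was 0.762, 0.686 and 0.734 against 0.504, 0.493 and 0.448, a log2 difference of -0.59. The ratios of TSC1 to TSC2 (0.384 ± 0.0185 and 0.346 ± 0.0248, SD, n = 3 each) and of RPS6KB1 to its paralog RPS6KB2 (0.386 ± 0.026 and 0.297 ± 0.0454) differed by -0.16 and -0.39 on the log2 scale, and by -0.47 and -0.79 after that correction. The corrected differences were -1.80 for EIF4EBP1 to EIF4E and -0.54 for DEPTOR to MTOR, so the order of the pairs depended on it. In all 5 pairs the groups did not overlap, with or without the correction. Such separation was common among single genes: 44.3% of all tested genes lay wholly lower with BCT and 41.0% wholly higher. No share was taken for other pairs of genes, so whether the separation is particular to these ratios is not known. The exact two-sided permutation test gave p = 0.1 for each, adjusted p = 0.1 over the 5 pairs, which is the smallest p that 3 samples against 3 allow.

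The rest of the pathway was followed in 64 further genes in 9 classes, of which 63 were tested and PRR5L, a RICTOR-binding protein, was too low. Of these 63, 13 were called lower (20.6%, against 17.8% of all tested genes) and 5 were called higher (7.94%, against 13.9%), and 45 were not called. Their median log2 fold change was -0.15, against -0.038 for all tested genes.

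**Figure D3:**
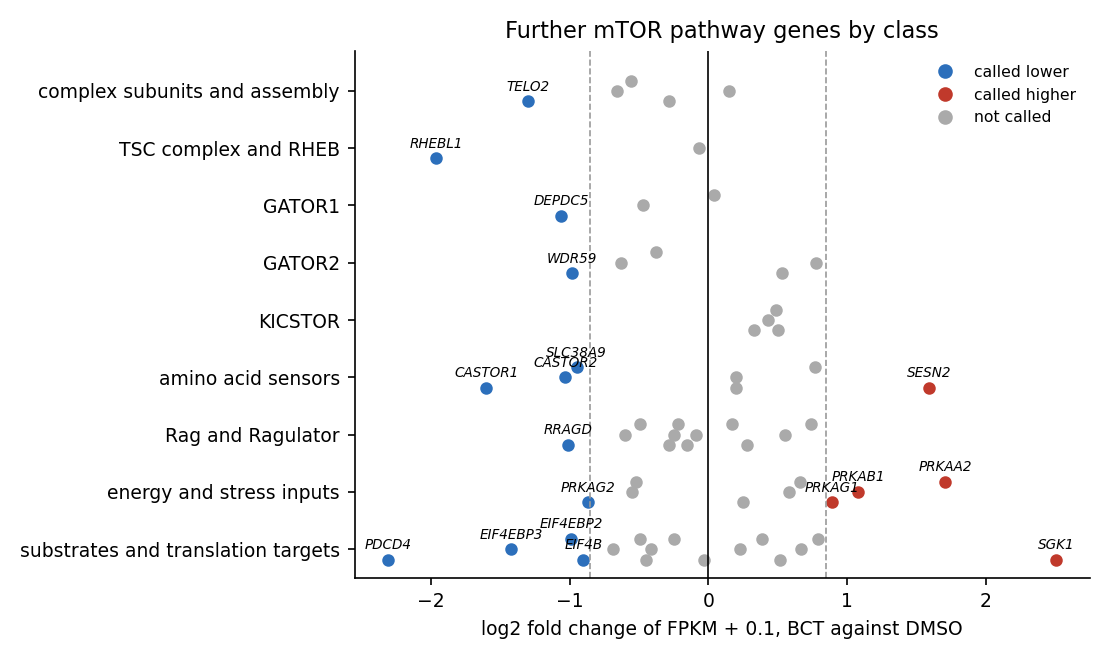
Log2 fold change of the 63 further mTOR pathway genes by class, with genes called lower in blue, called higher in red and others in grey; dashed lines mark the threshold of 0.85. PDCD4 (-2.31) and SGK1 (2.51) lie at the ends, and the KICSTOR genes all lie between 0.33 and 0.50. SGK1 passed the filter only through its BCT samples.

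Of the 5 tested genes for complex subunits and assembly, 1 was called lower (TELO2), against 17.8% of all tested genes. In this class 0 were called higher, against 13.9% of all tested genes. TELO2, a co-chaperone that stabilizes newly made mTOR and related kinases, stood at 20.4 ± 0.18 FPKM under vehicle and 8.27 ± 1.22 FPKM under BCT (SD, n = 3 each), 2.47-fold lower, a call lost with equal sums (-0.54), and its span is also listed for IFT140. The mTORC2 subunit MAPKAP1 (mSIN1) had a log2 fold change of 0.15 and PRR5 (Protor-1), whose span is also listed for ARHGAP8 and a read-through gene, of -0.56, a direction that turned with equal sums (0.19). The mTORC1 inhibitor AKT1S1 (PRAS40) was at -0.28, a direction that turned under both rescalings to equal sums (0.49, and 0.11 without MIR6087) and after the GC and length correction (0.02). In the class of TSC and RHEB partners, the RHEB-like GTPase RHEBL1 fell from 5.67 ± 0.501 to 1.40 ± 0.23 FPKM, 3.88-fold. The third TSC subunit, TBC1D7, did not pass the test (-0.07, interval -0.24 to 0.10, limma adjusted p = 0.38).

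The GATOR complexes relay amino acid supply to the Rag GTPases, which bring mTORC1 to the lysosome. DEPDC5, a subunit of the inhibitory GATOR1, fell from 3.53 ± 0.0918 to 1.64 ± 0.0817 FPKM (SD, n = 3 each), and WDR59 of GATOR2 from 12.8 ± 0.202 to 6.46 ± 0.314 FPKM. These calls, 1 of 3 GATOR1 and 1 of 5 GATOR2 genes against 17.8% of all tested genes, were lost with equal sums (-0.33 and -0.22), with equal sums without MIR6087 (-0.69 and -0.60) and in the test against the threshold (limma adjusted p = 0.11 and 0.13), and that of DEPDC5 also with a pseudocount of 1 FPKM (-0.78). The 4 KICSTOR genes, which tether GATOR1 to the lysosome, were all higher in every BCT sample than in any DMSO sample, as were 41.0% of all tested genes, with a median log2 fold change of 0.46 and 0 calls. Of the 12 Rag, Ragulator and folliculin genes, 1 was called lower (8.33%, against 17.8% of all tested genes) and 0 higher (against 13.9%). RRAGD, the gene called, fell from 10.9 ± 0.748 to 5.38 ± 0.671 FPKM, a call lost with equal sums (-0.25, and -0.63 without MIR6087) and in the test against the threshold (limma adjusted p = 0.29).

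Of the 7 amino acid sensor genes, 3 were called lower (42.9%, against 17.8% of all tested genes) and 1 higher (14.3%, against 13.9%). SESN2, a leucine sensor and stress-induced inhibitor of mTORC1, rose from 9.52 ± 0.255 to 28.8 ± 2.22 FPKM (SD, n = 3 each), 3.0-fold (adjusted p = 5.5e-07 from limma). Its relatives SESN1 and SESN3, named here after their values were seen, were both at a log2 fold change of 0.20, which for SESN3 turned to -0.08 after the GC and length correction. CASTOR1, an arginine sensor listed under its older symbol GATSL3, fell 3.04-fold, from 3.86 ± 0.391 to 1.21 ± 0.166 FPKM. The GC and length correction did not cover CASTOR1. CASTOR2, listed as GATSL2, fell from 5.92 ± 0.201 to 2.86 ± 0.113 FPKM, but its span holds duplicated genes, so its reads may be shared. The lysosomal arginine sensor SLC38A9 fell from 4.35 ± 0.208 to 2.21 ± 0.131 FPKM. The calls of CASTOR2 and SLC38A9 were lost with a pseudocount of 1 FPKM (-0.84 and -0.74), with equal sums (-0.28 and -0.20, or -0.65 and -0.57 without MIR6087) and in the test against the threshold (limma adjusted p = 0.091 and 0.55), and that of CASTOR2 also after the GC and length correction (-0.65).

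The AMPK genes, whose kinase restrains mTORC1 when energy is short, made up all of the calls among the 9 energy and stress inputs. Of the 6 AMPK subunit genes tested, 3 were called higher and 1 lower, against 13.9% and 17.8% of all tested genes. The catalytic subunit gene PRKAA2 rose from 2.68 ± 0.0794 to 9.03 ± 1.08 FPKM (SD, n = 3 each), PRKAB1 from 17.1 ± 0.495 to 36.4 ± 1.77 FPKM and PRKAG1 from 62.5 ± 1.65 to 116.2 ± 5.60 FPKM. Most of the summed catalytic (alpha) level came from PRKAA1, 94.3% with DMSO and 88.0% with BCT. PRKAA1 was not called, at a log2 fold change of 0.58, and the alpha sum went from 47.2 ± 3.83 to 75.2 ± 1.92 FPKM. PRKAG2 fell from 15.0 ± 0.813 to 8.18 ± 0.205 FPKM, so that PRKAG1 made up 93.4% of the summed gamma subunit level with BCT and 80.6% with DMSO. PRKAG2, at -0.87, lost its call under several alternatives, among them the median-of-ratios scaling (-0.83), and PRKAG1, at 0.89, lost its own in the test against the threshold (limma adjusted p = 0.80). DDIT4 (REDD1), a stress-induced inhibitor that acts through TSC2, had 53.7, 36.7 and 55.9 FPKM in the DMSO samples and 38.4, 34.6 and 28.3 FPKM in the BCT samples. Its groups overlapped, and the log2 fold change of -0.52 was not called and turned to 0.25 after rescaling to equal sums.

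Of the 16 further substrates and translation targets, 4 were called lower (25%, against 17.8% of all tested genes) and 1 higher (6.25%, against 13.9%). Beside EIF4EBP2 and EIF4EBP3, PDCD4 fell from 22.5 ± 1.08 to 4.54 ± 1.04 FPKM (SD, n = 3 each), 4.95-fold. PDCD4 inhibits the helicase eIF4A and is degraded after phosphorylation by S6 kinase, and its span is also listed for BBIP1. The fourth, EIF4B, a helicase cofactor and S6 kinase substrate named here after its values were seen, fell from 389.8 ± 25.8 to 208.9 ± 7.25 FPKM, a call lost with equal sums (-0.13, and -0.51 without MIR6087) and in the test against the threshold (limma adjusted p = 0.80). SGK1, a kinase phosphorylated by mTORC2, was the gene called higher. It was at 0.44 ± 0.071 FPKM with DMSO and 3.02 ± 0.743 FPKM with BCT. The log2 difference of 2.51 is understated by the pseudocount at these low levels. All its DMSO samples were below 1 FPKM, so SGK1 passed the filter only through its BCT samples. Its call is therefore not separate support for a rise. The second S6 kinase gene, RPS6KB2, had a log2 fold change of 0.52 and was not called.

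A scaling by a factor per sample shifted all genes alike, so the calls depended on it but the distance of the mTOR genes from other genes hardly did. Rescaling to equal FPKM sums moved the all-gene median of the log2 fold changes to 0.72, and to 0.344 when MIR6087 was left out of the sums. Relative to that median, EIF4EBP1 was at -1.88 and -1.89, RICTOR at 1.14 and 1.14, RHEB at -0.76 and -0.77, and DEPTOR at -0.40 and -0.41. With equal sums, 6 of the mTOR genes were called higher (MTOR, RPTOR, RICTOR, TSC1, TSC2 and RPS6KB1), as were 44.1% of all tested genes, and EIF4EBP1 was called lower, as were 5.25%. The GC and length correction moved RPTOR to 0.51, TSC2 to 0.72 and MLST8 to 0.34, and turned RPS6KB1 to -0.03.

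**Figure D4:**
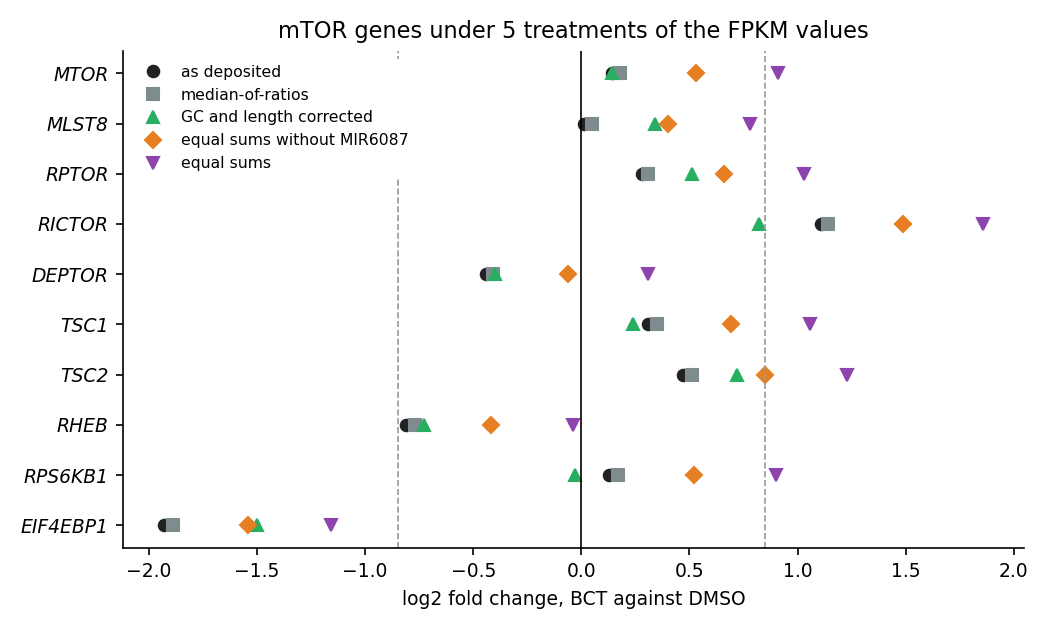
Log2 fold change of the 10 mTOR genes with the FPKM values as deposited, with median-of-ratios scaling, after correction for GC content and length, and after rescaling to equal FPKM sums with and without MIR6087; dashed lines mark the threshold of 0.85. EIF4EBP1 stays below -0.85 throughout, RICTOR lies at 0.82 after the GC and length correction, and DEPTOR passes from -0.44 to 0.31 with equal sums.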

How the data were processed

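Total RNA of 6 samples of 22RV1 cells was sequenced as paired-end reads. The authors trimmed the reads with Trimmomatic (0.38 in the submitters' processing notes), aligned them to hg19 by HISAT2, ran StringTie, and deposited per-gene FPKM values; the notes also name CASAVA and HTSeq. The gene annotation and the test for genes are not given in the sources used here.

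Groups and replicate numbers come from the sample titles. The scale was log2(FPKM + 0.1), on which fold changes of low genes are understated, and genes averaging 1 FPKM or more were kept and tested with limma 3.58.1 in R 4.3.3 (eBayes, mean-variance trend, treatment only, all 6 samples) and Benjamini-Hochberg adjustment over all 12729 genes. The steps were tested on simulated data. Ratios were tested with scipy 1.17.1 by exact permutation. No count test was run, since FPKM holds no counts, and counting error could not be given. Listed starts had 1 added, since start plus 1 is a GENCODE transcript start for 7961 of 22088 matched genes and the start itself for 857. Promoter windows come from RefSeq (GRCh38.p14). GC content and length are those of the longest GENCODE transcript, available for 91.8% of tested genes and all 10 mTOR genes, and were corrected by loess (span 0.5).

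The members and lists were chosen with earlier results of these data known. Named genes are the 10 mTOR genes, 12 fixed partner genes and, from each class, in each direction the called genes of largest change, at most 3. Alternatives covered the pseudocount, the filter, scaling, GC and length, the FDR (0.01 in the study's methods), a test against the threshold, the replicate block and each sample left out. The sums without MIR6087, the summed binding protein ratios and the GC and length correction of the ratios were added after the data were seen.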

Additional observations from a re-analysis of the deposited data

How the results depend on the processing

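Of 169 results for the 10 mTOR genes under the alternatives, 155 were unchanged in direction and call, 2 lost a call, 7 gained one and 5 reversed. Over 37 named genes 558 of 620 were unchanged in this sense. The mTOR genes called higher numbered 6 with equal FPKM sums, 2 with equal sums without MIR6087, and 0 both after the GC and length correction and in a test against the fold change threshold. With each sample left out, 1 to 2 were called lower, the 2 being without BCT replicate 1, and 1 was called higher. Of the further genes, 13 lower and 5 higher, the lower became 8 with a filter at a mean of 5 FPKM, 3 and 5 with equal sums with and without MIR6087, and 5 in the test against the threshold, and the higher 27 and 17 with those equal sums. Of all 12729 tested genes, equal sums called 44.1% higher and 5.25% lower. Without MIR6087 the equal sums called 3370 of them higher and 1208 lower, so the counts of further genes moved with the all-gene shift. Leaving out samples gave 12 to 13 lower and 5 to 6 higher. The filter at 5 FPKM left RHEBL1, DEPDC5, CASTOR1, CASTOR2 and SLC38A9 untested, and their calls were missing for that reason.

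Of all tested genes, 2263 were called lower and 1764 higher, with lower genes 56.2% of calls. Equal sums gave 668 and 5614 (10.6% lower), equal sums without MIR6087 1208 and 3370 (26.4%), and the test against the threshold 1392 and 1033. With no filter 2657 of 21543 tested genes were higher, and with the filter at 5 FPKM 1150 of 9319. Leaving out samples gave 2146 to 2488 lower and 1684 to 1932 higher.

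Directions reversed for MLST8 without DMSO replicate 1 (-0.001), DMSO replicate 2 (-0.01) and BCT replicate 2 (-0.05), its values with a sample left out ranging from -0.05 to 0.06, for RPS6KB1 (-0.03), AKT1S1 (0.02) and SESN3 (-0.08) after the GC and length correction, with equal sums for DEPTOR (0.31), AKT1S1 (0.49), DDIT4 (0.25), PRR5 (0.19) and TBC1D7 (0.69), and with equal sums without MIR6087 for AKT1S1 (0.11) and TBC1D7 (0.31). Equal sums shift all genes by construction; the cause of the other changes was not tested. The 5 ratios kept their direction with other pseudocounts, with each sample left out (-2.54 to -2.12 for EIF4EBP1 to EIF4E, 0.78 to 0.92 for RICTOR to RPTOR) and after the GC and length correction, which was run on them after the data were seen.

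Same-numbered samples deviated from their group means with correlations of 0.116, 0.0328 and 0.0342, and not every sample correlated best with its own number, so the numbers were not taken to pair them. With the replicate number as a block, 1 mTOR gene was called lower and 1 higher, 13 and 5 of the further genes, and 2266 and 1767 of all genes. The exact p of each ratio was then 0.25, the smallest that 3 pairs allow.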
